A study of Mus musculus with 49 samples.

Results

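The matriptase axis and its epithelial companions were followed through 7 genes: St14, Spint1, Spint2, Rab25, Dsp, S100a14 and Lgals7. They were taken as the array probes whose current mouse symbol is one of these names, which gave 8 probes and 7 of the 13852 named genes. The arrays measured mouse embryonic fibroblasts (MEF) infected with reprogramming factors, together with pluripotent stem cell lines, on 49 one-colour arrays (Cy5) in 23 groups. Of these, 20 groups held 2 arrays and 3 groups held 3, and nothing in the labels says that the arrays of a group came from separate cultures, so p-values measure only the spread between these arrays. The study screened for factors that reprogram such cells beside the 4 known ones.

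The fibroblasts came from female embryos of strain OGXICR at embryonic stage D13.5, from limb and tail skin freed of epidermis, and all infected cells and induced pluripotent stem cell (iPSC) lines derive from such cells. Factors were carried by doxycycline-inducible lentiviruses, and a mixed infected culture was measured, so a level is an average over cells. Both factor mixes hold KLF4 and MYC, to which SKM adds SOX2 and OKM adds OCT4. An empty vector is written EV, and fibroblasts given it alone are MEF1 EV, the reference for the SKM cultures, and MEF2 EV, that for the OKM cultures. The SKM cultures received EV, MIXL1, GRB2, HNF4a, CEBPa, PAX1, SOX7, GATA6 or OCT4 as a further vector (2 arrays each), or GATA4 (3 arrays). The OKM cultures received GMNN, SOX3, SOX2 or SOX1 (2 arrays each), or EV (3 arrays). The remaining groups were uninfected MEF, iPSC of the lines G3, G6Gm and Dlx3RNAi, and the embryonic stem cells (ESC) R1, of strain 129, all on 2 arrays, and ESC B6, of strain C57BL\6, on 3. Lines were grown on mitomycin C-treated MEF feeders, and each is a single line.

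Matriptase, encoded by St14, is a membrane-anchored serine protease of epithelial surfaces. Its partner inhibitors are the Kunitz-type proteins HAI-1 (Spint1) and HAI-2 (Spint2), which are membrane-bound and hold its activity in check, and matriptase can activate the protease prostasin (Prss8), pro-hepatocyte growth factor and the receptor Par2 (F2rl1). Rab25 is an epithelial member of the Rab11 family of small GTPases that guide recycling of membrane proteins, desmoplakin (Dsp) anchors keratin filaments to desmosomes, S100a14 belongs to the S100 family of small EF-hand proteins and is found in epithelia, and galectin-7 (Lgals7) is a sugar-binding protein of stratified epithelia. Fibroblasts are mesenchymal, and a gain of epithelial genes is a known early step of reprogramming.

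In the RefSeq annotation of mouse build GRCm38.p6, Spint1 lies at chr2:119237360-119249535, Rab25 at chr3:88542029-88548279, S100a14 at chr3:90526849-90528837, Lgals7 at chr7:28863796-28866285, Spint2 at chr7:29256330-29282059, St14 at chr9:31088590-31131811 and Dsp at chr13:38151294-38198577. RefSeq promoter sequences were matched for 5 of the 7 genes, namely Spint1, Spint2, Rab25, Dsp and Lgals7, leaving St14 and S100a14. The 250 bases before the gene start are printed for the 3 genes whose window lies wholly outside the annotated gene. Rab25 and Dsp are shown because their response differed between the OKM and SKM factor combinations, and Spint1 for comparison as a member that rose with OKM. The capitals mark the E-box CACCTG, a motif bound by ZEB and SNAI repressors of epithelial genes, or its reverse complement CAGGTG. The windows are chr3:88548280-88548529 on the minus strand for Rab25, chr13:38151044-38151293 on the plus strand for Dsp and chr2:119237110-119237359 on the plus strand for Spint1, each read 5′ to 3′ on the gene's strand.
Rab25: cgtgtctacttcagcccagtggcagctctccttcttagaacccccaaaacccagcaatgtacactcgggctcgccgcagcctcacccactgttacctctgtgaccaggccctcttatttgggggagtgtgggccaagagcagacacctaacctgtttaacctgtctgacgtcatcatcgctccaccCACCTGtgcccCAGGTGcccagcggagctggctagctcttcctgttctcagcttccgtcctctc
Dsp: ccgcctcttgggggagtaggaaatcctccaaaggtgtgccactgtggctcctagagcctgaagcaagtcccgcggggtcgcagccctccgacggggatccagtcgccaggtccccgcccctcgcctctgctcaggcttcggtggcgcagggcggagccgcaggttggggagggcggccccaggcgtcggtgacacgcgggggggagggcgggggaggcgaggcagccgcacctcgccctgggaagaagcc
Spint1: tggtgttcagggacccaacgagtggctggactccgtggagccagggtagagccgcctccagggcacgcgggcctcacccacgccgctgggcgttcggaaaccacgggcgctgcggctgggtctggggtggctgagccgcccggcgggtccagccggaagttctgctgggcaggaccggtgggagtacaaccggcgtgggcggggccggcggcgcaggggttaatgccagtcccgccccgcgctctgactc
Rab25 held 2 E-box matches, which start 64 and 53 bases before the gene start. Dsp and Spint1 held 0. Spint2 held 3 and Lgals7 held 0, in windows that overlap the annotated gene by 82 and 250 bases and are therefore not printed. Searched on both strands, CACCTG was present in 17.2% of the 32851 RefSeq promoter windows of this length. The KLF core CACCC, present in 52.0% of windows, had 2 matches each in Spint1 and Rab25, of which 1 in Rab25 shares a base with an E-box, and 0 in the other 3 genes. The Grainyhead motif AACCNGTT, present in 1.79% of windows, had 1 match in Rab25 and 0 in the other 4. The SOX core ACAAAG (16.5% of windows), the octamer ATGCAAAT (1.60%) and the MYC E-box CACGTG (6.02%) had 0 matches in all 5. A match is a run of letters and not a shown binding site.

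The arrays fall into 5 normalization sets, and values are compared within a set only. ESC B6 forms set A, MEF2 EV and OKM+EV set B, the 4 OKM groups with an added factor set C, MEF1 EV with all SKM groups set D, and uninfected MEF with G6Gm, G3, Dlx3RNAi and R1 set E. All 7 members were measured in set B, 6 in set C (without S100a14), 5 in set A (St14, Spint1, Spint2, Rab25 and Lgals7), 4 in set D (Rab25, Dsp, S100a14 and Lgals7) and 4 in set E (St14, Spint2, Rab25 and Lgals7). Values are normalized linear intensities, and differences are in log2 of intensity plus 32, so the change of a dim gene is understated. Tests are from limma with Benjamini-Hochberg adjustment over all genes, and a call is an adjusted p below 0.05. The fit over all 49 arrays shares 1 spread per gene, but the arrays of set B varied more. The median over genes of the SD between the arrays of a group, in log2 units, was 0.194 to 0.420 in set B against 0.0773 to 0.145 in set D. Array 3 of OKM+EV correlated at r = 0.843 and 0.884 with arrays 1 and 2, which correlated at 0.986 with each other, and the pair of OKM+SOX2 arrays correlated at 0.905. Results of the fit of a set on its own are therefore given beside those of the fit over all arrays.

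St14 and Spint2, the protease and its inhibitor, were far higher in the pluripotent lines than in the fibroblasts from which iPSC are made. Neither Rab25 nor Lgals7 passed the test. St14 read 39.5 and 59.5 in uninfected MEF, 329 and 367 in G6Gm, 403 and 357 in Dlx3RNAi, 863 and 871 in G3, and 1276 and 1215 in ESC R1. Every line lay above the fibroblasts, R1 above G3, and G3 above the remaining lines, while G6Gm and Dlx3RNAi overlapped. The mean over the 4 lines was 3.01 ± 0.15 (SE) log2 units above uninfected MEF (adjusted p = 1.46e-12), and the single lines stood 7.03-fold (G6Gm) to 25.2-fold (R1) above the fibroblasts in intensity.

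Spint2 read 312 and 306 in uninfected MEF, 1976 and 1923 in G6Gm, 2447 and 3336 in Dlx3RNAi, 3905 and 4199 in G3, and 5143 and 5279 in R1. No neighbouring groups overlapped, and the order of the 5 groups was that of St14. The mean over the lines was 3.29 ± 0.21 (SE) log2 units above the fibroblasts (adjusted p = 1e-10), with 6.31-fold in G6Gm and 16.9-fold in R1. The background was high here: 57.8% of the 11991 genes tested were called between lines and fibroblasts (71.2% in the fit of set E alone), against 2 of 4 members, so the count of members says little beyond that background. For the single lines 8 of 16 member tests passed, beside 48.5% of genes, so this count too is near the background. St14 and Spint2 each passed in 4 of 4 comparisons, and Rab25 and Lgals7 in 0. In the set alone 8 were higher and 3 lower, beside 65.2% of genes.

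**Figure D1:**
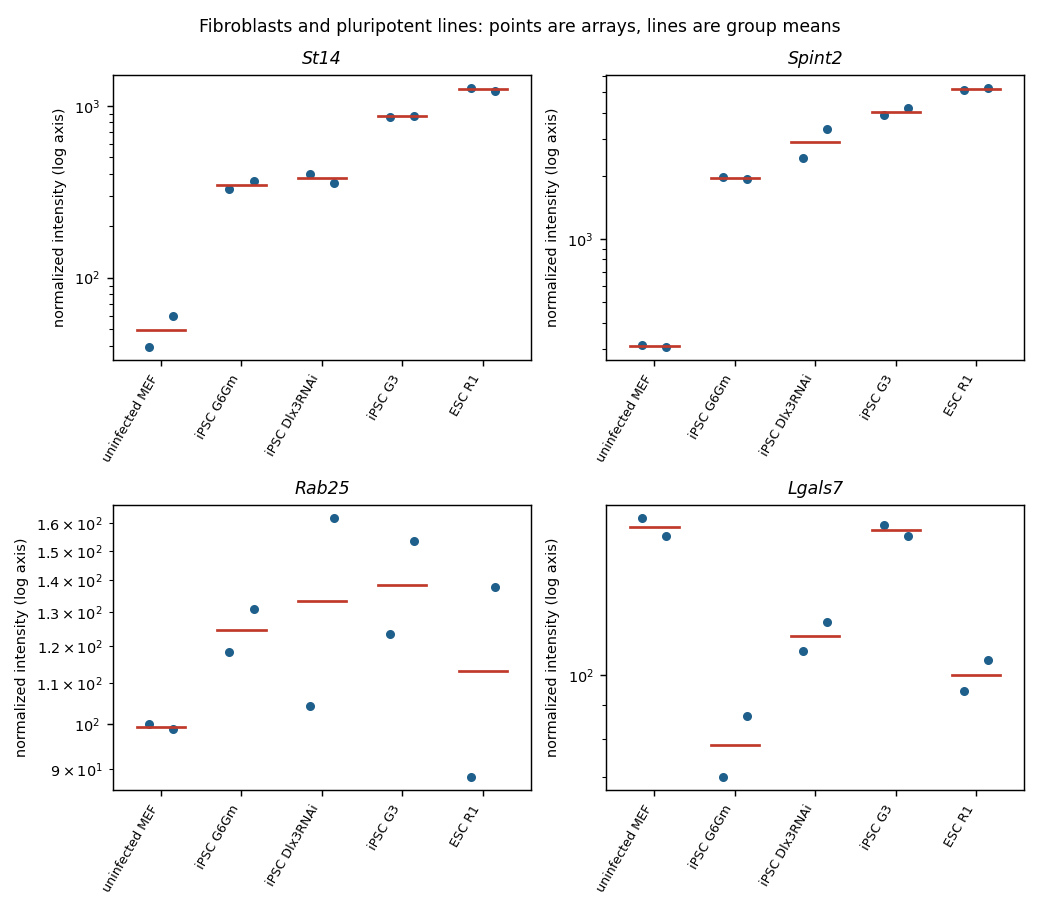
Normalized intensity (log axis) of St14, Spint2, Rab25 and Lgals7 in uninfected MEF, 3 iPSC lines and ESC R1, with 2 arrays per group as points and the group mean as a line. St14 and Spint2 climb from MEF through G6Gm and Dlx3RNAi to G3 and R1, while Rab25 and Lgals7 span less than 3-fold.

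Rab25 ranged from 88.3 to 162 over the 8 arrays of the lines and was 100.0 and 98.8 in MEF, a difference of 0.26 ± 0.18 (SE) (adjusted p = 0.216). The arrays of the 3 iPSC lines lay above both MEF arrays, but each group overlapped its neighbour in the order of levels. Lgals7 read 162 and 173 in MEF, 162 and 169 in G3, 109 and 120 in Dlx3RNAi, 94.5 and 105 in R1, and 70.0 and 86.7 in G6Gm. Its mean over the lines differed by -0.48 ± 0.53 (SE) with adjusted p = 0.451, and by the same amount with adjusted p = 0.00164 in the fit of set E alone. In that fit Lgals7 was lower than MEF in 3 of 4 lines, with G3 as the exception. The pair of OKM+SOX2 arrays, described further on, differed widely for Lgals7, and without array 1 or array 2 of that pair the adjusted p was 0.000338 or 0.000346.

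Among the lines, both members of the protease and inhibitor pair were lower in the mean of the iPSC lines than in ESC R1. St14 was lower by 1.30 ± 0.15 (SE) log2 units in the mean of the 3 iPSC lines (-1.30, adjusted p = 7.28e-06) and Spint2 by 0.87 ± 0.22 (-0.87, adjusted p = 0.00992). The Spint2 call did not hold without R1 array 1 or array 2, with adjusted p of 0.0949 and 0.110. The background was 13.54% of genes (29.9% in the set alone). Among the 6 pairs of lines, 7 of 24 member tests passed, all of St14 or Spint2, beside 15.5% of genes, and 13 passed in the set alone, beside 31.3%. The Spint2 calls of Dlx3RNAi against R1 and of G6Gm against G3 (adjusted p = 0.0282 and 0.00804) did not hold without any one of 3 and of 2 arrays, respectively (adjusted p of 0.112 to 0.237 and of 0.0535 to 0.0623). St14 in G6Gm was 3.58-fold below R1 (log2 difference -1.75 ± 0.18 SE, adjusted p = 1.85e-06) and in Dlx3RNAi 3.28-fold below it (-1.64 ± 0.18 SE, adjusted p = 3.68e-06). G3 was 1.44-fold below R1 and did not pass for St14 in the fit over all arrays (-0.51 ± 0.18 SE, adjusted p = 0.108), but did in the set alone (adjusted p = 0.0289), while Spint2 in G3 against R1 passed in neither (-0.36 ± 0.27 SE, adjusted p = 0.549, and 0.0740 in the set alone). For Spint2, Dlx3RNAi against G3 and against G6Gm passed in the set alone only (-0.50 and 0.54, adjusted p = 0.00944 and 0.0196). The St14 difference between Dlx3RNAi and G6Gm did not pass (0.12 ± 0.18 SE, adjusted p = 0.835).

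Cell markers also differed between these groups. The summed intensity of 4 measured pluripotency genes (of 10 listed) was 325 to 333 over the MEF arrays, 8777 to 9525 in Dlx3RNAi, 10630 to 10948 in G6Gm, 13532 to 15480 in G3 and 15908 to 16079 in R1. The sum of 8 measured fibroblast genes (of 10) was 38273 to 41198 in MEF, 10931 to 11105 in G3, 21338 to 23357 in R1, 29404 to 31210 in G6Gm and 38932 to 44653 in Dlx3RNAi. Of the 8 fibroblast genes, 4 lay below the array median in each of Dlx3RNAi, G3 and R1, 3 in G6Gm and 0 in MEF. Dlx3RNAi and G6Gm, the lines with the lowest St14, thus had the highest fibroblast sums and the lowest pluripotency sums of the lines. By the number of fibroblast genes below the median, Dlx3RNAi did not differ from G3 and R1. The part of these signals in the result was not tested. Fewer cells of a type and less RNA per cell cannot be told apart in such cultures. The keratinocyte genes, 7 of 10 measured, summed to 1589 to 2218 in all 5 groups, and 5 of the 7 lay below the array median in each. Dlx3, the gene named in the Dlx3RNAi label, read 254 and 384 in that line, 144 and 92.3 in MEF, 300 and 233 in G6Gm, 451 and 300 in G3 and 531 and 615 in R1, so its level in the labelled line overlapped those of G6Gm and G3.

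Measured partners of matriptase changed in both directions between the lines and MEF. In this comparison 57.8% of all genes were called (71.2% in the set alone), the background of each list. Of 36 listed proteases, inhibitors, substrates and receptors, 19 were measured, 8 rose and 6 fell, with a list median of 0.25 against 0.03 over all genes. Prss8, the prostasin that matriptase can activate, rose from 45.5 to 220 (1.58 ± 0.22 SE), and Scnn1b, a subunit of the epithelial sodium channel, from 298 to 1262 (1.92 ± 0.36 SE). Plat, the tissue plasminogen activator, fell from 3112 to 1010, and Met, the receptor of hepatocyte growth factor, from 299 to 93.7. Of the epithelial junction and identity genes 8 of 11 rose and 2 fell, led by Sfn (3.52 ± 0.19 SE), Cldn6 (2.96 ± 0.23), Cldn7 (2.16 ± 0.19) and Krt8 (2.06 ± 0.18). Of 10 mesenchymal regulators and markers 7 fell and 0 rose, led by Snai2 (-3.36 ± 0.19), Cdh2 (-2.92 ± 0.18), Cdh11 (-2.11 ± 0.15) and Twist1 (-1.95 ± 0.21). Of the epithelial transcription and splicing regulators only 4 were measured, and Klf5 rose (1.35 ± 0.19). Desmosome partners rose in 5 of 9 and fell in 1, with Pkp2, a plakophilin, up by 1.42 ± 0.20. Of Rab11-family and trafficking genes 6 of 15 rose and 6 fell, among them Rab11a, the close relative of Rab25, from 2546 to 5060 (0.97 ± 0.16).

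ESC line B6 has no other group in its set, so its levels are given without a comparison. St14 read 1639, 1836 and 1667, Spint1 2456, 2292 and 2228, Spint2 6811, 7084 and 6820, Rab25 470, 555 and 442, and Lgals7 between 408 and 440. The second Spint2 probe, measured only on these arrays, read 1258 to 1367. The spread between the B6 arrays was small, with coefficients of variation of 2.24% for the first Spint2 probe to 12% for Rab25.

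Infection with SKM and empty vector raised all 4 members measured in set D. Lgals7 read 209 and 213 in MEF1 EV and 24106 and 19529 in SKM+EV, the largest rise of a member in any comparison run, at 6.48 ± 0.67 (SE) log2 units (104-fold, adjusted p = 6.84e-09). S100a14 read 25.9 and 47.6 against 1966 and 2712, a rise of 5.11 ± 0.25 (63.7-fold, adjusted p = 2.56e-12). Both started from a dim level in the fibroblasts, where the fold rests on the background left in the array. Rab25 read 224 and 199 against 592 and 593 (1.36 ± 0.23, adjusted p = 3.92e-05), and Dsp read 262 and 273 against 537 and 945 (1.31 ± 0.27, adjusted p = 0.00104). The SKM+EV arrays of Dsp differed by almost as much as the group means. Without array 2 its difference was 0.92 and its call did not hold. All 4 of 4 members passed, beside 19.7% of the 10006 genes tested (34.1% in the set alone).

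Other epithelial genes moved with them, beside 19.7% of all genes called (34.1% in the set alone). Of 12 measured junction and identity genes 7 rose and 0 fell in both fits, with Krt8 at 38.0 in MEF1 EV and 8058 in SKM+EV (6.80 ± 0.22), Sfn (stratifin, an epithelial 14-3-3 protein) up by 5.53 ± 0.24, Krt19 by 3.08 ± 0.19 and the integrin Itgb4 by 1.95 ± 0.30. Of 10 desmosome and cornified plaque partners of Dsp 5 rose and 0 fell (7 and 0 in the set alone), led by the desmosomal cadherin Dsg1a (11.7 to 1123, 4.58 ± 0.31), the plakins Ppl (3.50 ± 0.34) and Evpl (2.73 ± 0.16), and Perp (3.10 ± 0.16). The list median was 1.32 against -0.02 over all genes. Of the 17 measured matriptase pathway genes 3 rose and 1 fell (7 and 1 in the set alone), which in the fit over all arrays is near the background. The 3 were the kallikreins Klk8 (3.79 ± 0.17) and Klk5 (2.85 ± 0.21) and the membrane protease Tmprss4 (2.97 ± 0.22), and the one that fell was the thrombin receptor F2r (-0.94 ± 0.25). Grhl3 and Ovol1, epithelial transcription factors, rose by 1.34 ± 0.20 and 1.12 ± 0.23 among 6 measured regulators, of which 2 rose and 0 fell (3 and 1 in the set alone). Among mesenchymal genes 4 of 10 fell and 0 rose (6 and 1 in the set alone), Cdh11, Cdh2, Snai2 and Snai1, with differences of -1.97 ± 0.19, -1.43 ± 0.23, -1.04 ± 0.24 and -0.865 ± 0.18. Rab11fip5 (1.20 ± 0.16) and Rab17 (0.92 ± 0.19), a further epithelial Rab, were among 3 trafficking genes of 12 that rose, while Rab11b and Rab11fip3 were the 2 that fell (-0.66 ± 0.20 and -0.51 ± 0.18), with 6 risen and 2 fallen in the set alone.

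Keratinocyte markers rose in the same cultures. The summed intensity of 6 measured keratinocyte genes (of 10) was 4093 to 4376 in MEF1 EV and 59541 to 62461 in SKM+EV, and that of 7 fibroblast genes fell from between 143300 and 152218 to between 90048 and 97923. Their part in the rise of the members was not tested.

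**Figure D2:**
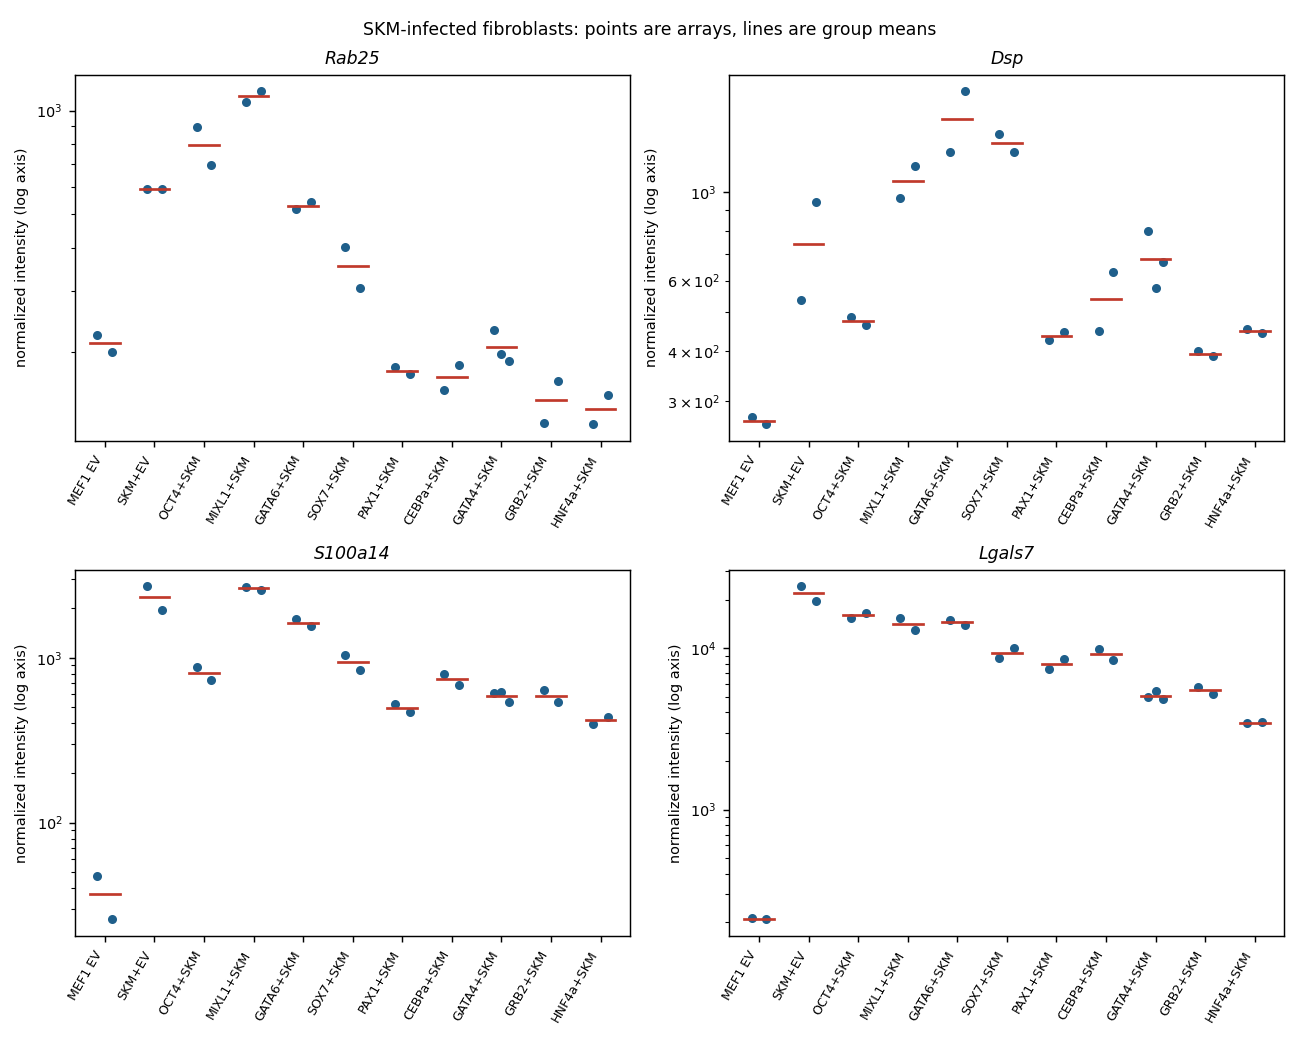
Normalized intensity (log axis) of Rab25, Dsp, S100a14 and Lgals7 in MEF1 EV, SKM+EV and SKM with each of 9 added factors, with arrays as points and group means as lines. Lgals7 and S100a14 lie above MEF1 EV in every SKM group, while Rab25 returns to or below the fibroblast level with PAX1, CEBPa, GATA4, GRB2 and HNF4a.

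Every culture with SKM and an added factor kept Lgals7 and S100a14 above MEF1 EV. Both passed in 9 of 9 such comparisons, with rises of 3.85 to 6.04 for Lgals7 and 2.73 to 5.30 for S100a14. Dsp passed in 7 of 9 (0.51 to 2.35 over all 9), GATA6 (2.35 ± 0.27, adjusted p = 1.88e-07) giving the highest value, and PAX1 and GRB2 did not pass (adjusted p = 0.107 and 0.128, and 0.0319 and 0.0537 in the set alone). Its calls with OCT4 and HNF4a (adjusted p = 0.0493 and 0.0405) were lost without any one of their 4 arrays (0.136 to 0.186 and 0.105 to 0.126) and with a pseudocount of 64 (0.0619 and 0.0511), and that with CEBPa without CEBPa array 2 (0.115). Rab25 passed in 4 of 9, with MIXL1 (2.22 ± 0.23), OCT4 (1.75 ± 0.23), GATA6 (1.21 ± 0.23) and SOX7 (0.66 ± 0.23), the last lost without either MEF1 EV array or SOX7 array 1 (adjusted p of 0.0615 to 0.244). Its lowest value was in HNF4a+SKM, where 123 and 150 lay below 224 and 199 in MEF1 EV (-0.53 ± 0.23, adjusted p = 0.0501, and 0.00829 in the set alone). GRB2 was next (-0.47 ± 0.23, adjusted p = 0.0856, and 0.0178 in the set alone). In all, 29 of 36 member tests passed, every one of them higher, beside 38.8% of genes (52.6% in the set alone, where 30 were higher and 2 lower). These comparisons share the 2 arrays of MEF1 EV.

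Set against SKM+EV in the fit over all arrays, S100a14 fell with 7 of 9 added factors, Rab25 with 6 and Lgals7 with 3. Rab25 rose with 1, and Dsp rose with 2 and fell with 1. In the fit of set D alone S100a14 fell with 8, Rab25 with 6, Lgals7 with 9 and Dsp with 3. Of 36 member tests 17 were lower and 3 higher in the fit over all arrays, beside 26.0% of genes called. In the fit of set D alone 26 were lower and 3 higher, beside 39.1%. All 9 comparisons share the 2 arrays of SKM+EV, so an error in those arrays enters each of them.

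HNF4a, a transcription factor of liver and gut epithelium, gave the lowest S100a14, Lgals7 and Rab25 of the SKM groups. S100a14 read 399 and 439 (-2.38 ± 0.25, adjusted p = 2.62e-07), Lgals7 3472 and 3448 (-2.64 ± 0.67, adjusted p = 0.00219) and Rab25 123 and 150 (-1.89 ± 0.23, adjusted p = 9.58e-08). Dsp read 443 and 455 and did not pass (-0.63 ± 0.27, adjusted p = 0.0669), though it did in the set alone (0.0212). In this comparison 42.5% of genes were called.

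GRB2, an adaptor protein of growth factor signalling, was the only added factor with which all 4 members passed in the fit over all arrays. Rab25 read 124 and 165 (-1.83 ± 0.23, adjusted p = 2.71e-07), S100a14 542 and 639 (-1.92 ± 0.25, adjusted p = 6.06e-06), Lgals7 5230 and 5751 (-1.98 ± 0.67, adjusted p = 0.0195) and Dsp 388 and 400 (-0.81 ± 0.27, adjusted p = 0.0226). The Dsp call was lost when SKM+EV array 2 or either GRB2 array was left out (adjusted p of 0.0823 to 0.316), and the Lgals7 call without SKM+EV array 1 or either GRB2 array (0.0712 to 0.111). The background was 40.3%. In the fit of set D alone all 4 members passed with SOX7 (1 of them higher), PAX1 and HNF4a as well as with GRB2. That fit called 24.8% of all genes with SOX7, 32.8% with PAX1, 57.1% with HNF4a and 55.8% with GRB2.

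GATA4, a zinc finger factor of endoderm and heart, was measured on 3 arrays. Rab25 read between 189 and 231 (-1.40 ± 0.21, adjusted p = 2.47e-06), S100a14 between 537 and 618 (-1.92 ± 0.23, adjusted p = 9.59e-07) and Lgals7 between 4857 and 5403 (-2.09 ± 0.61, adjusted p = 0.00514, and 0.0544 without SKM+EV array 1). Dsp overlapped SKM+EV (-0.08 ± 0.25). The share of genes called was the highest of the 9 factors, 53.8%.

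CEBPa and PAX1 each lowered Rab25 and S100a14. With CEBPa, Rab25 read 155 and 183 (-1.64 ± 0.23, adjusted p = 1.63e-06) and S100a14 688 and 799 (-1.60 ± 0.25, adjusted p = 5.03e-05), beside 34.6% of genes called. With PAX1, Rab25 read 180 and 172 (-1.59 ± 0.23, adjusted p = 7.1e-06) and S100a14 471 and 526 (-2.14 ± 0.25, adjusted p = 3.98e-06), beside a background of 15.7%. Dsp with PAX1 read 425 and 445 and passed in the set alone only (-0.67 ± 0.27, adjusted p = 0.102, and 0.0268). The keratinocyte sum was lower than in SKM+EV (59541 to 62461) with both, at 19378 to 21865 with CEBPa and 6445 to 6681 with PAX1, as it was with HNF4a (11742 to 12199), GRB2 (14435 to 14816), GATA4 (10138 to 12154) and OCT4 (20163 to 22929). With MIXL1, GATA6 and SOX7 it was 46076 to 58282, and its part in the members' values was not tested.

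OCT4, the factor whose absence sets SKM apart from the full reprogramming mix, lowered S100a14, the only one of the 4 members to pass in the fit over all arrays. S100a14 read 737 and 880 (-1.48 ± 0.25, adjusted p = 0.000303), Rab25 894 and 695 (0.39 ± 0.23, adjusted p = 0.339) and Lgals7 16574 and 15346 (-0.44 ± 0.67, adjusted p = 0.789, and 0.0121 in the set alone). Dsp read 485 and 466 and did not pass (-0.56 ± 0.27, adjusted p = 0.240). The background was 11%.

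GATA6 and SOX7 raised Dsp. It read 1257 and 1786 with GATA6 (1.04 ± 0.27, adjusted p = 0.00728, background 22.0%) and 1256 and 1396 with SOX7 (0.86 ± 0.27, adjusted p = 0.0411, background 12.1%), against 537 and 945 in SKM+EV. Neither call held without SKM+EV array 1 (adjusted p of 0.223 and 0.518) or with 1 array of the added factor (0.147 without GATA6 array 2, and 0.0901 and 0.221 without a SOX7 array). S100a14 with GATA6 read 1713 and 1557 and passed in the set alone only (-0.49 ± 0.25, adjusted p = 0.175, and 0.0355). SOX7 also lowered S100a14 (849 and 1039, -1.27 ± 0.25, adjusted p = 0.00161) and Rab25 (402 and 306, -0.71 ± 0.23, adjusted p = 0.0400), the last of which did not hold without any one of the 4 arrays (adjusted p of 0.0561 to 0.252). The fibroblast sum was 49242 to 50462 with GATA6, 69640 to 76274 with SOX7 and 54584 to 57080 with GATA4, against 90048 to 97923 in SKM+EV. The sum of the skeletal muscle genes, 2 of 5 measured, was 1791 to 2295 with SOX7 against 998 to 1143, and the part of these sums was not tested. MIXL1 raised Rab25 to 1059 and 1138 (0.85 ± 0.23, adjusted p = 0.0410) in a comparison where 2.1% of genes were called, and this call too was lost without any one of the 4 arrays (0.142 to 0.332) and with a pseudocount of 16 (0.0538).

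**Figure D3:**
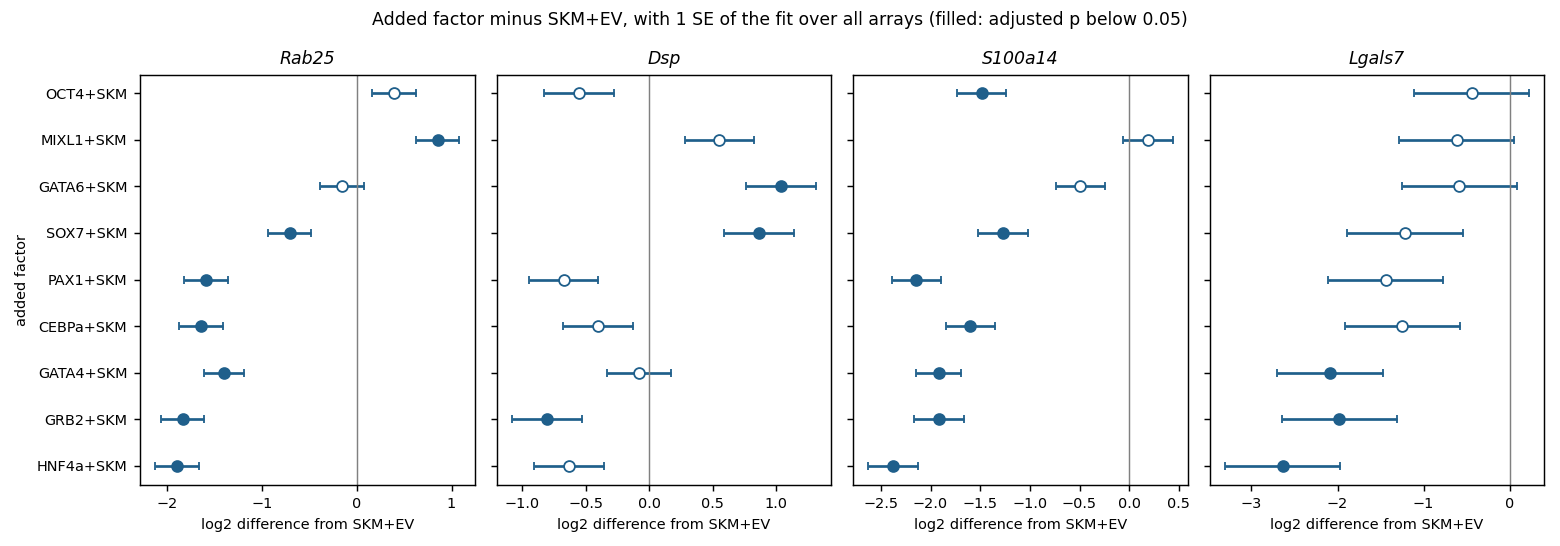
Log2 difference of SKM with each of 9 added factors from SKM+EV for Rab25, Dsp, S100a14 and Lgals7, with bars of 1 SE from the limma fit over all arrays and filled points for an adjusted p below 0.05. Lgals7 lies left of 0 for all 9 factors and S100a14 for all but MIXL1, Rab25 lies right of 0 for OCT4 and MIXL1, and Dsp lies right of 0 for GATA6, SOX7 and MIXL1.

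The mean of Lgals7 lay below that of SKM+EV with all 9 added factors. The difference ran from -0.44 (OCT4) to -2.64 (HNF4a). It passed in 3 of 9 comparisons in the fit over all arrays and in 9 of 9 in the fit of set D alone. The spread in the fit over all arrays takes in the OKM+SOX2 pair of set C, which read 95.4 and 4366. That pair is in none of these comparisons. For SKM+EV against MEF1 EV, the SE of Lgals7 was 0.67 over all arrays and 0.12 in set D alone. In order of level SKM+EV stood first, followed by OCT4, GATA6, MIXL1, SOX7, CEBPa, PAX1, GRB2, GATA4 and HNF4a. The neighbours GATA6 and MIXL1, SOX7 and CEBPa, CEBPa and PAX1, and GRB2 and GATA4 overlapped. For S100a14 the order was MIXL1, SKM+EV, GATA6, SOX7, OCT4, CEBPa, GRB2, GATA4, PAX1, HNF4a and MEF1 EV, and 4 of its 10 neighbouring pairs overlapped. For Rab25 it was MIXL1, OCT4, SKM+EV, GATA6, SOX7, MEF1 EV, GATA4, PAX1, CEBPa, GRB2 and HNF4a, with 4 overlapping pairs, and for Dsp GATA6, SOX7, MIXL1, SKM+EV, GATA4, CEBPa, OCT4, HNF4a, PAX1, GRB2 and MEF1 EV, with 5.

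Some desmosome partners of Dsp fell with every added factor but MIXL1 in the fit over all arrays. Dsp itself was called lower only with GRB2 in that fit, and higher with GATA6 and SOX7. Of 10 measured, 8 fell with GRB2 and 7 each with HNF4a, CEBPa and GATA4, 6 with PAX1, 3 with OCT4, 2 each with GATA6 and SOX7 and 0 with MIXL1, while 2 rose with GATA6 and 1 each with SOX7 and GATA4. Of all genes, that fit called 40.3% with GRB2, 42.5% with HNF4a, 34.6% with CEBPa, 53.8% with GATA4 and 15.7% with PAX1. In the set alone 9 fell with GRB2 and CEBPa, 8 with HNF4a and PAX1 and 7 with GATA4. The shares of all genes called there were 55.8%, 50.1%, 57.1%, 32.8% and 66.2% in the same order. Whether the list exceeds these shares was not tested. In HNF4a+SKM the plakin Ppl went from 1081 to 181 and Dsg1a from 1123 to 195, and Pkp1 and Perp also fell (-1.81 and -1.43). With GATA6, Pkp2 rose (1.17) while Dsg1a fell (-2.79). Of the 17 measured matriptase pathway genes 8 fell with each of HNF4a, GRB2 and GATA4, while 0, 1 and 3 rose, beside 42.5%, 40.3% and 53.8% of all genes called, so these counts say little beyond the background. Klk5 fell in all 3, with a level going from 1895 to 221, 267 and 172. Tmprss4 fell with HNF4a and CEBPa (-2.31 and -1.81) and rose with OCT4 (1.74), and F2rl1, the Par2 receptor, rose with GATA4 from 387 to 1789. Fn1, the mesenchymal matrix protein fibronectin, rose with HNF4a, CEBPa and GRB2 (3.24, 2.81 and 2.61) and fell with OCT4 (-1.18).

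Infection with OKM and empty vector raised all 7 members. St14 read 110 and 93.6 in MEF2 EV and 685, 870 and 720 in OKM+EV (2.56 ± 0.17 SE, 7.46-fold). Its inhibitors rose too, Spint1 from 28.5 and 65.8 to 384, 435 and 850 (2.85 ± 0.33, 11.8-fold) and Spint2 from 742 and 397 to 2865, 3236 and 4319 (2.58 ± 0.24, 6.10-fold). The differences of St14 and Spint2 lay within 1 SE of that of Spint1.

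Rab25 read 351 and 170 against 1826, 1670 and 2382 (2.82 ± 0.21), and Dsp 292 and 386 against 5266, 4921 and 2502 (3.46 ± 0.25). The lowest Dsp value was on array 3. S100a14 went from 39.0 and 59.0 to between 2120 and 4349 (5.27 ± 0.23, 65.4-fold) and Lgals7 from 136 and 108 to between 4727 and 6243 (5.17 ± 0.61, 45.2-fold). Adjusted p lay between 1.55e-13 and 7.22e-06 in the fit over all arrays and between 0.000971 (Lgals7) and 0.0151 (Spint1) in the fit of set B alone. The fit of set B alone gave wider errors, with an SE of 0.345 for St14, 0.448 for Spint1, 0.367 for Spint2, 0.394 for Rab25, 0.402 for Dsp and 0.409 for S100a14, and a narrower one of 0.302 for Lgals7. All 7 members passed in both fits, beside 40.8% of 11947 genes in the first and 5.55% in the second. The second share depended on OKM+EV array 3, since set B alone called 663 genes with it and 5572 without it.

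The other lists depended strongly on the fit here, beside 40.8% of all genes called over all arrays and 5.55% in the set alone. Of 15 junction and identity genes 12 rose in the fit over all arrays and 9 in the set alone, led by Krt8 (6.66 ± 0.20), Sfn (3.83 ± 0.22), Itgb4 (3.55 ± 0.27) and Krt19 (3.23 ± 0.18), each called in both. Of 20 matriptase pathway genes 9 rose and 1 fell, or 4 and 0 in the set alone. Tmprss4 (53.0 to 740), Klk8 (370 to 2493), Klk5 (84.5 to 519) and Plat (1723 to 6851) were called in both. Of 9 desmosome partners 6 rose, or 2 in the set alone, where Evpl (2.54 ± 0.15) and Perp (2.49 ± 0.15) passed. Rab17 rose by 3.41 ± 0.18 and Rab10 by 1.41 ± 0.19 in both fits, and of the remaining trafficking genes none passed in the set alone. Of 9 epithelial regulators 4 rose and 1 fell, or 2 and 0 in the set alone, where Elf3 (2.29 ± 0.29) and Grhl3 (1.53 ± 0.18) passed. Of 11 mesenchymal genes 3 rose and 4 fell, or 1 and 0 in the set alone, the one being Zeb1, an E-box-binding repressor, which rose from 1690 to 4478.

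Marker sums differed widely between these groups. Keratinocyte genes, 9 of 10 measured, summed to 2489 to 2946 in MEF2 EV and 18911 to 41908 in OKM+EV. Macrophage genes, 5 of 6 measured, summed to 33661 to 41487 in MEF2 EV and 973 to 3655 in OKM+EV, and adipocyte genes, 3 of 5, to 15992 to 16265 and 507 to 11834. Fibroblast sums overlapped, at 68465 to 76138 and 75310 to 111670. MEF2 EV thus carried macrophage signal that OKM+EV largely lacked. Its adipocyte signal was above that of OKM+EV, where the sum averaged 4289 but reached 11834 on the highest array. The part of these signals in the result was not tested.

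**Figure D4:**
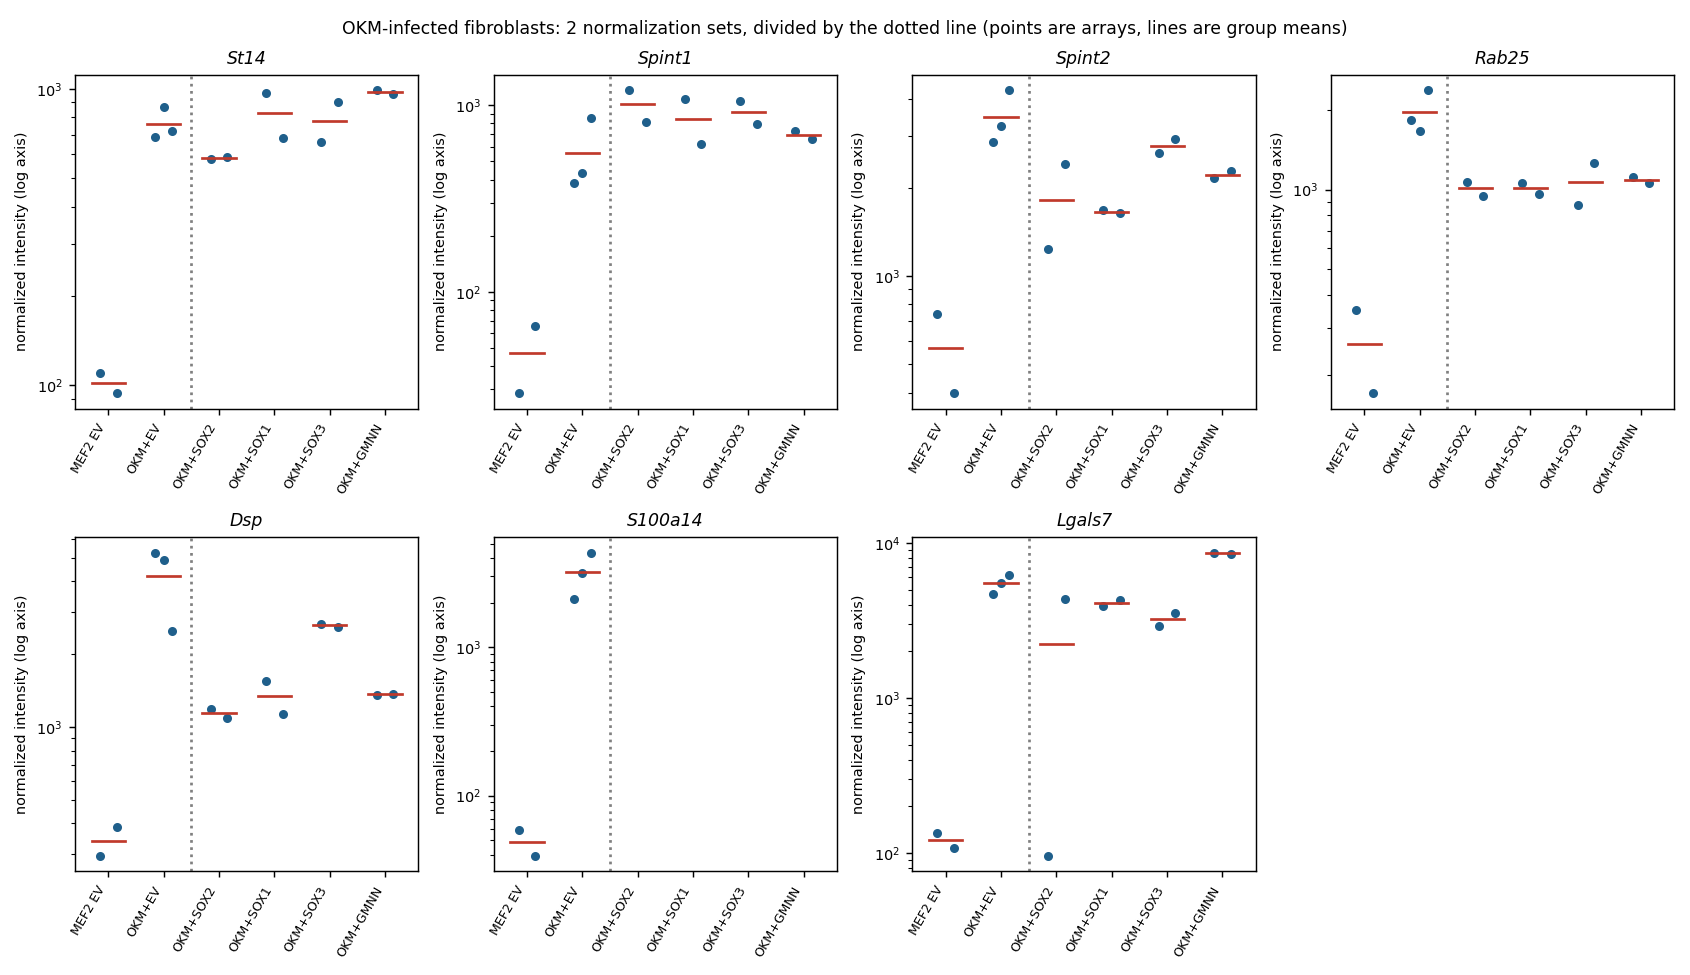
Normalized intensity (log axis) of the 7 members in MEF2 EV and OKM+EV, left of the dotted line, and in OKM with SOX2, SOX1, SOX3 or GMNN, a separately normalized set, right of it. Points are arrays and lines are group means, all 7 members rise from MEF2 EV to OKM+EV, and 1 OKM+SOX2 array stands far below its partner for Lgals7.

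With a SOX factor or GMNN (geminin, a regulator of DNA replication) added to OKM, 6 members were measured and the reference was OKM+SOX2. Rab25 did not pass for any of the 3, with arrays between 873 and 1258 in all 4 groups and differences of 0.0045, 0.05 and 0.11. Spint1 lay between 617 and 1213, and all neighbouring groups overlapped. St14 read 580 and 587 with SOX2, 659 and 900 with SOX3, 969 and 681 with SOX1 and 992 and 959 with GMNN, Spint2 1232 and 2405, 2630 and 2923, 1678 and 1638, and 2159 and 2274 in the same order, and Dsp 1189 and 1088, 2669 and 2594, 1553 and 1132, and 1359 and 1369.

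In the fit over all arrays 4 of 18 member tests passed, beside 6.42% of genes, and in the fit of set C alone 0 passed, beside 0.828%. The 4 were Dsp with SOX3 (1.19 ± 0.27, adjusted p = 0.0120, and 0.0815 in the set alone), St14 with GMNN (0.71 ± 0.18, adjusted p = 0.0221, and 0.241), and Lgals7 with SOX1 and GMNN. Without OKM+SOX2 array 1 the Dsp difference was 1.25 and that of St14 0.70, and neither call held. The St14 call was also lost without any other array of its comparison, and the Dsp call without either SOX3 array. Lgals7 read 95.4 and 4366 in the 2 OKM+SOX2 arrays, 3942 and 4325 with SOX1, 2937 to 3554 with SOX3 and 8451 to 8692 with GMNN. The SOX3 difference, 2.12, did not pass (adjusted p = 0.0523). Without OKM+SOX2 array 1 the SOX1 difference went from 2.47 to -0.08, that of SOX3 from 2.12 to -0.43, and that of Lgals7 with GMNN from 3.52 to 0.97, with adjusted p = 0.0267 in the set alone. GMNN+OKM also had the highest keratinocyte sum of set C, 55446 to 56663 against 19141 to 29380 in the other 3 groups, and its part was not tested.

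The SKM and OKM effects could be set against each other for the 4 members measured in both sets, as a difference of differences, each taken within its own set. Dsp rose less with SKM than with OKM (-2.14 ± 0.37 SE, adjusted p = 0.000121) and so did Rab25 (-1.46 ± 0.31, adjusted p = 0.000614). The S100a14 difference did not pass (-0.16 ± 0.34, adjusted p = 0.775). Lgals7 rose more with SKM by 1.32 ± 0.91, which did not pass (adjusted p = 0.314) but did in the fit of the sets alone (1.32 ± 0.21, adjusted p = 0.000138). The wider SE of Lgals7 takes in the OKM+SOX2 pair, which is on neither side. Dsp and Rab25 passed in the sets alone too (adjusted p = 0.000637 and 0.00309). The background was 26.0% of 9323 genes (21.1% in the sets alone). The fibroblasts of origin, MEF1 EV and MEF2 EV, differ between the sides, as do the normalization sets, so factor combination, fibroblasts and set cannot be told apart.

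The patterns of the members were compared over groups. With log2 group means centred on their own set, St14 and Spint2 correlated at r = 0.970 over 11 groups, which put Spint2 at rank 10 of 10276 genes for St14. S100a14 and Lgals7 correlated at r = 0.954 over 13 groups (rank 5 of 9322), and S100a14 and Dsp at 0.863 (rank 34). Spint1, over 6 groups, correlated at 0.977 with Rab25, 0.930 with Spint2, 0.930 with Dsp, 0.900 with St14 and 0.710 with Lgals7. These were ranks 142, 609, 608, 878 and 2354 of 10973 for Spint1, so many other genes reached such values. Rab25 and Lgals7 correlated at 0.622 over 22 groups (rank 519 of 8522 for Rab25). St14 and Lgals7 correlated at 0.438 over 11 (rank 3072 of 10276 for St14). The genes most like St14 were Gnpnat1, Hpdl, Grtp1, Pim3 and Tnk1 (r = 0.974 to 0.994), and most like Spint2 were Rpl38, Tnk1, 1500009L16Rik, Gadd45b and Ubr3 (0.971 to 0.980). Those most like S100a14 were Urah, Mapk13, Evpl, Sfn and Lgals7 (0.954 to 0.964), and for Lgals7 Mapk13, Krt17, Krt14, Dmkn and Klk8 (0.858 to 0.903). For Rab25 they were Pla2g4f, H3c8, Zfp750, Psapl1 and Ttc22 (0.866 to 0.912) over 22 groups, and for Dsp Psma6, Nt5e, Eef1e1, Srpk1 and Tmem126a (0.858 to 0.893) over 17. Spint1 had values in 6 centred groups only, where Gm9573, Mzt1, Epdr1, Ippk and Tspan6 reached 0.998 or more. Groups of a set share its normalization, so these values are descriptions.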

How the data were processed

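Total RNA was labelled with Cy5 and hybridised to one-colour mouse arrays, per the labels' protocols. The authors deposited normalized linear intensities, as the file's values show. For the scanner software and the normalization, the method was not given in the sources used here. Sets of arrays that share missing probes and medians were treated as separately normalized. Of 19426 probes, 15539 carried 1 symbol and 3887 carried none or several and were left out. Symbols came from the platform annotation, updated to RefSeq: 13971 were current, 1538 were synonyms and 30 kept the platform name. Each gene was represented by 1 probe. Differences were tested on log2(intensity + 32) with limma 3.58.1 in R 4.3.3 (group means over all 49 arrays, eBayes with an intensity trend), with Benjamini-Hochberg adjustment over all genes of a comparison at 0.05. Scripts were tested on simulated data, where the fit over all arrays called too many unchanged genes for OKM+EV against MEF2 EV. Alternatives were another pseudocount, a fit of each set alone, a filter on dim genes, a replicate block, no trend, the mean of all probes, renewed quantile normalization and leaving out each array. No detection flags were used, and the number of arrays limits the precision. The members, the gene lists and the rule for named genes, up to 4 largest called changes of a list with no overlap between arrays of the sides, were chosen with earlier results of these data known.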

Additional observations from a re-analysis of the deposited data

Results flagged for a closer look

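The rise of Dsp and that of Rab25 differed between the SKM and OKM cultures by a test of the difference itself. For Dsp the SKM effect was lower by -2.14 log2 units (SE 0.37, limma adjusted p = 0.000121), from 268 to 741 with SKM against 339 to 4230 with OKM. For Rab25 the difference was -1.46 (SE 0.31, adjusted p = 0.000614), from 212 to 593 against 261 to 1960. The fibroblasts and the normalization set changed together with the factors and cannot be told apart from them.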

How the results depend on the processing

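Of 153 member tests, 151, 151, 152, 152 and 153 kept their direction and call with a pseudocount of 16, of 64, without an intensity trend, with the mean of all probes and after renewed quantile normalization, and 103 of 104 did with the filter on dim genes. The fit of each set alone kept 126, lost 4 and gained 23, and leaving out single arrays kept 671 of 753, lost 49, gained 32 and reversed 1. For Lgals7 the 753 include leaving out an OKM+SOX2 array in comparisons that do not hold that group. Most of the 32 gained calls came from these. For the 3 iPSC lines against ESC R1, the count of called members was 2 and ranged from 1 to 2 when an array was left out. For pairs among the lines it was 7, and 13 in the set alone. For SOX1, SOX3 or GMNN against OKM+SOX2 it was 4, ranged from 1 to 5 with an array left out, and was 0 in the set alone and 1 in the set alone without OKM+SOX2 array 1. For the difference between the SKM and OKM effects it was 2, and 1 with the filter on dim genes. Lgals7 in OKM+SOX1 against OKM+SOX2 changed from 2.47 to -0.08 without OKM+SOX2 array 1, in both fits, and to 5.03 without array 2. These alternatives with a set alone and an array left out were chosen after seeing the data.

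The replicate numbers gave no consistent pairing. Deviations of same-numbered arrays correlated at -0.496 to 0.515 over group pairs of set D, where 17 of 55 pairs exceeded 0.1. In sets B, C and E, 0 of 1, 0 of 6 and 3 of 10 pairs did. The correlations had both signs in each of these sets. Arrays of different numbers may therefore share deviations, which was not tested. With the replicate number as a block, 145 of 153 tests kept their call and 8 gained one, and the counts of called members were 2, 8, 2, 7, 4, 33, 23, 7, 5 and 2 in the order of the report's first mention of lines, single lines, iPSC against R1, pairs, SKM+EV, added factors against MEF1 EV and against SKM+EV, OKM+EV, set C and the SKM and OKM difference. Over all genes, OKM+EV against MEF2 EV called 4879 genes, 663 in set B alone, 5572 in set B alone without OKM+EV array 3 and 6832 with the block. For SKM+EV against MEF1 EV the counts were 1970, 3410 in the set alone and 2949 with the block, and for the lines against MEF 6933, 8543 and 7877.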

Other observations

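The families of S100a14 and Lgals7 were described for the lists chosen beside the members. Between the pluripotent lines and uninfected MEF, 6 of 11 other S100 genes fell and 1 rose, beside 57.8% of all genes called, led by S100a4, a mesenchymal S100 protein, which went from 24483 to 1964 (-3.74 ± 0.11 SE, limma adjusted p = 1.7e-22). Of 6 genes of the galectin list, which also holds the galectin-binding protein gene Lgals3bp, 5 fell and 0 rose, among them Lgals9 (749 to 400) and Lgals3bp (4996 to 2572). With SKM+EV, 1 of 9 other S100 genes rose and 0 fell (3 and 0 in the set alone), the one being S100a4 from 28367 to 42696, beside 19.7% of all genes called. Of 5 genes of the galectin list only Lgals3bp passed, falling from 16193 to 9643. With OKM+EV, S100a7a rose (58.9 to 155) and S100a4 was among 2 of 10 S100 genes that fell (21252 to 16342) in the fit over all arrays. That fit called 40.8% of all genes, so the S100 counts do not stand out from the background. In the fit of set B alone 0 of 10 passed, where limma called 5.55% of all genes.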
